A study of Mus musculus with 6 samples.

Results

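The transcripts of 10 immediate early genes were followed across the libraries: Fos, Fosb, Jun, Junb, Jund, Atf3, Egr1, Egr2, Ier2 and Ier3. They were taken by gene symbol, as 10 of the 25509 gene rows of the deposited table, and each symbol stood on 1 row. The data came from peritoneal macrophages of C57BL/6 mice, from which poly-A RNA had been sequenced. The comparison addressed overexpression of angiotensin-converting enzyme (ACE), the peptidase that makes angiotensin II. The genotypes were Tg-ACE, the ACE-overexpressing mice that some labels also name JWT (3 libraries), and wild type (WT, 3 libraries). All 6 libraries shared the strain and the same handling: thioglycollate, which recruits inflammatory macrophages to the peritoneum, had been injected, cells were taken on day 4 and purified on a Percoll gradient, and the cells that adhered within 2 h of culture gave the RNA. The age and sex of the mice, the promoter that drives ACE in the Tg-ACE mice and whether each library came from its own mouse are not stated in the sources used here, so p-values measure the spread between these libraries, which may be technical. The library descriptions also carry an experiment code: replicates 2 and 3 of each genotype belong to Exp-156b (4 libraries) and replicate 1 of each genotype belongs to Exp-156 (2 libraries). Their meaning is not stated.

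Immediate early genes are transcribed within minutes of a stimulus, from transcription factors that are already present in the cell and without new protein synthesis, and most of their transcripts decay quickly. Fos and Jun proteins pair through leucine zippers to form AP-1, which binds DNA and regulates growth, differentiation and inflammatory genes, and Egr proteins bind GC-rich sites through zinc fingers. In macrophages these genes respond to growth factors, to microbial products and to handling such as enzymatic digestion or plating, and their products also take part in macrophage differentiation.

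The libraries held between 24294258 and 28120394 expected counts each, and 15577 to 15899 genes had a count. Ace, the overexpressed gene, had 101.8, 24.9 and 31.4 CPM (counts scaled to a library total of 1000000, here without further scaling) in Tg-ACE replicates 1, 2 and 3, against 16.8, 7.64 and 11.8 in WT replicates 1, 2 and 3, so the Tg-ACE libraries were above the WT libraries. The genotype fit given below called 0 genes higher in Tg-ACE, so Ace itself did not pass that test. The codes stood apart in much more than the genes described here. The female transcript Xist had 321.0 to 457.0 CPM in the Exp-156b libraries and 0.412 to 0.533 CPM in the Exp-156 libraries. The 4 Y-linked genes measured summed to at most 0.357 CPM in Exp-156b and to between 138.3 and 147.7 CPM in Exp-156, so sex and code cannot be told apart. Reads of mitochondrial genes made up 1.87% to 3.20% of counts in Exp-156b and 1.38% to 1.47% in Exp-156. Summed macrophage markers (8 genes, all expressed) spanned 17601 to 22129 CPM in Exp-156b and 21714 to 21743 CPM in Exp-156. Most of each sum was Lyz2, at 14002 to 18118 CPM over the 6 libraries. The defining markers of the labelled cell type were present in every library, and their calls between the codes are given below.

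The libraries of the experiment codes did not overlap for 9 of the 10 immediate early genes, beside 59.8% of all genes tested. For genotype, none of the 10 passed the test. The genotypes did not overlap for 1 of the 10, Atf3, beside 4.91% of all genes tested. Fos and Fosb, the partners that make AP-1 heterodimers with Jun proteins, were lower in Exp-156b by the largest factors. Jun, Junb, Jund, Egr1, Ier2 and Ier3 were lower there by smaller factors, Egr2 was higher, and Atf3 did not pass the test. Levels below in CPM are scaled by the TMM method, except for the sums of cell type markers. A log2 fold change is a difference on the log2 scale from a model fitted over all 12827 genes that passed a low-count filter, with its standard error (SE). A gene was called where its edgeR quasi-likelihood p-value, adjusted by the Benjamini-Hochberg method over those genes, was at most 0.05.

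**Figure D1:**
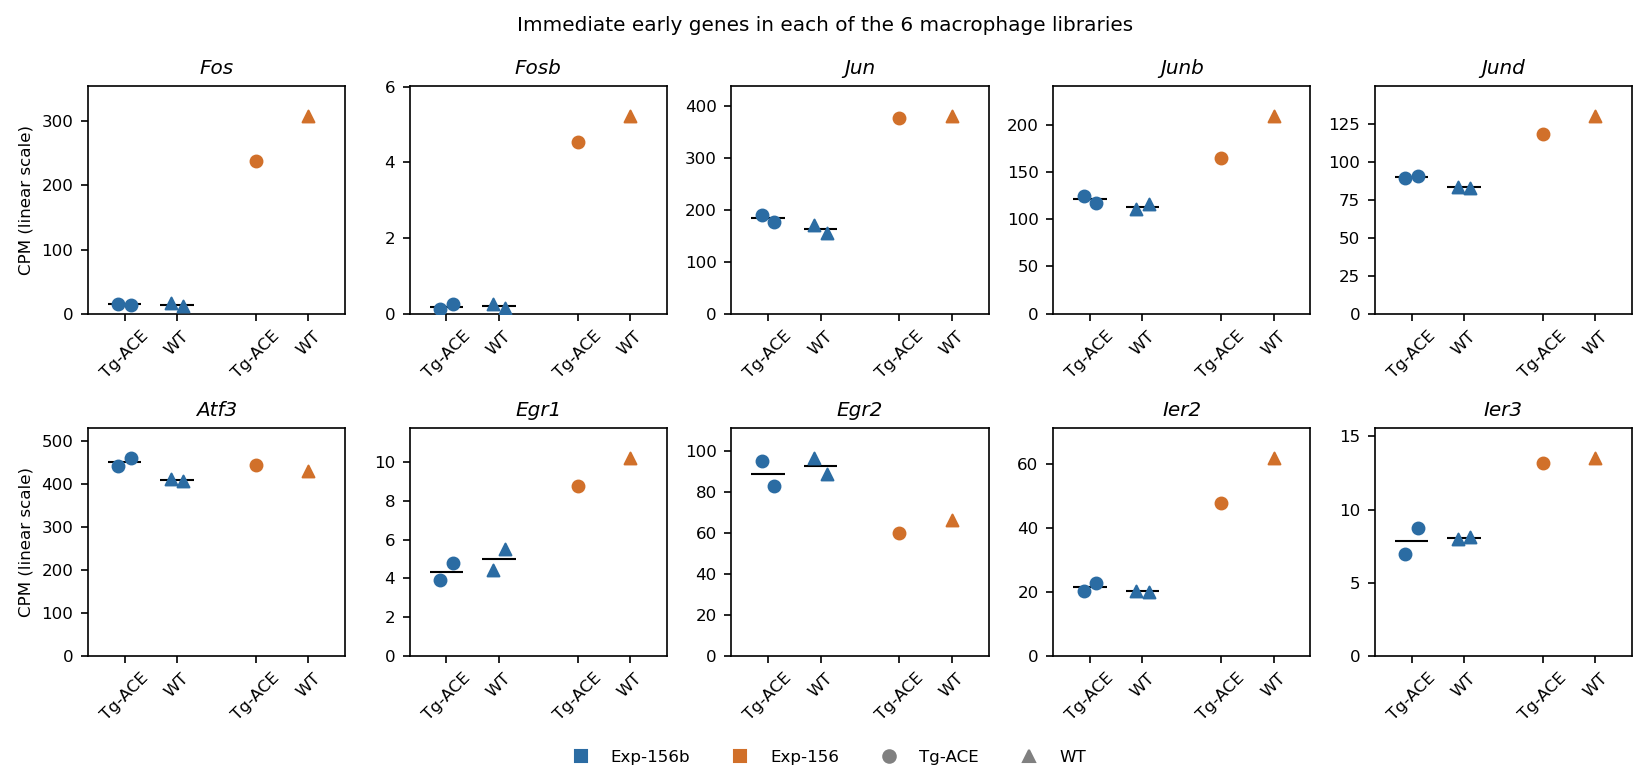
CPM of each of the 10 genes in each of the 6 libraries, on linear axes that start at 0, with Exp-156b in blue, Exp-156 in orange, Tg-ACE as circles left of WT as triangles, and a bar for the mean of the 2 Exp-156b libraries of a genotype. Fos sits between 12.7 and 16.2 CPM in the 4 Exp-156b libraries and at 237.6 and 308.4 CPM in the 2 Exp-156 libraries, while Egr2 is higher in Exp-156b and the codes overlap for Atf3.

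Fos encodes the prototype AP-1 partner of Jun. In Exp-156b, Fos had 15.6 and 14.3 CPM in Tg-ACE and 16.2 and 12.7 CPM in WT, and in Exp-156 it had 237.6 CPM in Tg-ACE and 308.4 CPM in WT. The 4 Exp-156b libraries lay close together and far below both Exp-156 libraries, with no overlap. The mean of 14.7 ± 1.52 CPM (SD, n = 4) in Exp-156b was 5.38% of the Exp-156 mean of 273.0 CPM. The log2 fold change was -4.21 (SE 0.12, 95% interval -4.49 to -3.92, edgeR quasi-likelihood test, adjusted p = 1.59e-06). By this value Fos ranked 43rd from the lowest of the 12827 genes tested, and 9th by p. Within each genotype, with replicates 2 and 3 against replicate 1 alone and no test, the difference was -3.98 on the log2 scale in Tg-ACE and -4.42 in WT. In bulk RNA, fewer cells of a type and less RNA per cell cannot be told apart, which holds for every level given here.

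Fosb, a close relative of Fos that also pairs with Jun proteins, was rare. It had deposited counts of 3 and 6 in Tg-ACE and 7 and 4 in WT in Exp-156b, and of 129 in Tg-ACE and 128 in WT in Exp-156. These are 0.120, 0.247, 0.249 and 0.159 CPM in Exp-156b, against 4.54 and 5.24 CPM in Exp-156, again without overlap. The lowest Exp-156b value is at the 3-count level (0.107 to 0.123 CPM, depending on the library) below which no level is read here. Fosb did not pass the low-count filter. In the fit without that filter its log2 fold change was -4.61 (SE 0.30, 95% interval -5.28 to -3.94, edgeR quasi-likelihood test, adjusted p = 9.45e-07). Fos had an adjusted p of 1.24e-09 by the same test in that fit. The adjusted p of Fosb is therefore not to be set against the one given above for Fos. Pooled over libraries, the 20 counts of Exp-156b against the 257 counts of Exp-156, scaled by library size, gave a ratio of 4.01% (exact 95% interval 2.41% to 6.32%, counting error only). Fos gave 5.45% (5.17% to 5.75%) by the same measure, so the interval of Fosb includes the value of Fos.

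The promoters of 5 of the genes are shown, and these are the genes for which a window held a motif match. Of them, Fos, Fosb and Jun were lower in Exp-156b, Egr2 was higher and Atf3 did not pass the test. Each line gives the 250 bases before the transcription start in RefSeq on GRCm38.p6, read 5′ to 3′ on the gene's strand, and 8 of the 10 genes had such a window in the RefSeq table. Capitals mark matches to motifs: TGACGT (the core of the cyclic AMP response element), TGACATCA (the Jun promoter's AP-1-like element), GCGNGGGCG (the Egr site) and the CArG box of serum response factor, all on both strands, and TATAAA on the gene's strand.
Fos promoter, chr12:85473640-85473889, plus strand: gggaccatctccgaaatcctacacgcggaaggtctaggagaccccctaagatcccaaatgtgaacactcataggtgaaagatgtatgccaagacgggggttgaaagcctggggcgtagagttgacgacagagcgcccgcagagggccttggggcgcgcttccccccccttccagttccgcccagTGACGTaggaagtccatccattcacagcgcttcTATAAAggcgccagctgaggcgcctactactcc
Fosb promoter, chr7:19310046-19310295, minus strand: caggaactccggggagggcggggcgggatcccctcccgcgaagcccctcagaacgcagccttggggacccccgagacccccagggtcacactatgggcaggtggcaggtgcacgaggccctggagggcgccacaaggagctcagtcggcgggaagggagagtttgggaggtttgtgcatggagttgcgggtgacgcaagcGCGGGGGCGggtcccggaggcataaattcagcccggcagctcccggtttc
Jun promoter, chr4:95052223-95052472, minus strand: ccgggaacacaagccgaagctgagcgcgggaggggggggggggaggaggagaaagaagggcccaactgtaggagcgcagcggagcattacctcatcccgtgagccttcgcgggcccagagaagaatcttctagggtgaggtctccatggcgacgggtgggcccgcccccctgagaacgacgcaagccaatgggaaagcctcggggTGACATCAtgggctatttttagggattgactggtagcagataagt
Egr2 promoter, chr10:67537619-67537868, plus strand: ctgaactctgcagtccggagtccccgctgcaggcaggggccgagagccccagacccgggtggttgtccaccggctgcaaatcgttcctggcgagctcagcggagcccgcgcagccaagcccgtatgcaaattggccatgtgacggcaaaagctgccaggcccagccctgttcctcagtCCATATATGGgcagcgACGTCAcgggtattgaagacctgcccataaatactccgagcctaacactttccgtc
Atf3 promoter, chr1:191183334-191183583, minus strand: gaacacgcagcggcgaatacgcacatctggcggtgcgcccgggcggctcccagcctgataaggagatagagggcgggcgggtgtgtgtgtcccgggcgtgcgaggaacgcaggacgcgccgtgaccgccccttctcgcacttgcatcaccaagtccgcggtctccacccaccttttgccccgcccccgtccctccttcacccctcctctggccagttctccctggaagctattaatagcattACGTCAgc

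In the Fos window the cyclic AMP response element core lay 66 to 61 bases and TATAAA 33 to 28 bases before the start. The Egr2 window, 1 of 5 in the RefSeq table for this gene, held a CArG box 72 to 63 bases and the cyclic AMP response element core, on the opposite strand, 56 to 51 bases before the start. The other Egr2 windows differed: 2 that overlap it hold the same matches, 1 holds another CArG box and no cyclic AMP response element core, and 1 holds no match. The Fosb window held the Egr site 50 to 42 bases, and the Jun window TGACATCA 45 to 38 bases, before the start. In the Atf3 window the cyclic AMP response element core lay on the opposite strand 8 to 3 bases before the start, and this is the start of a shorter transcript inside the annotated gene. Among all 32851 such windows, 6.47% held TGACGT, 2.93% TGACATCA, 4.70% the Egr site, 7.59% TATAAA and 1.47% the CArG box. The classical AP-1 site, TGANTCA, was also searched on both strands and is in 6.75% of windows. The windows of Junb, Jund and Ier3, genes that were also lower in Exp-156b, matched none of these letters. The Jund window ends at chr8:70697738, upstream of the counted gene, which starts at 70698949 in the annotation. A match is a run of letters and not evidence of binding. Bases outside these windows were not searched. A window without a motif, such as the Fos window without a CArG box, does not show that the gene lacks it.

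Jun, the member of its family with the strongest transactivation, was lower in Exp-156b by a smaller factor than Fos. It had 190.8 and 176.3 CPM in Tg-ACE and 170.7 and 155.8 CPM in WT in Exp-156b, and 376.4 CPM in Tg-ACE and 381.4 CPM in WT in Exp-156. The 2 Exp-156 libraries were nearly equal and above all 4 Exp-156b libraries. The Exp-156b mean of 173.4 ± 14.5 CPM (SD, n = 4) was 45.8% of the Exp-156 mean of 378.9 CPM, with a log2 fold change of -1.13 (SE 0.08, 95% interval -1.31 to -0.95, edgeR adjusted p = 5.47e-05). Jun overlaps the antisense gene Junos, which is not analysed here.

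Junb, which competes with Jun for partners and often restrains it, had 124.5 and 117.2 CPM in Tg-ACE and 110.3 and 115.8 CPM in WT in Exp-156b, and 164.6 CPM in Tg-ACE and 209.4 CPM in WT in Exp-156. The codes did not overlap, and the 2 Exp-156 libraries were further apart than for Jun. The log2 fold change was -0.67 (SE 0.10, 95% interval -0.91 to -0.44, edgeR adjusted p = 0.00167). Junb overlaps Prdx2 on the opposite strand, and Prdx2 had 131.4 to 162.1 CPM in Exp-156b and 154.2 to 156.01 CPM in Exp-156. Whether the authors counted by strand is not stated, so reads of such partners may not be separated.

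Jund, the most constitutively expressed Jun gene in many tissues, had the smallest fold change of the 3, with an interval that overlapped that of Junb. Its levels in Exp-156b were 89.2 and 90.6 CPM in Tg-ACE and 83.6 and 82.7 CPM in WT, and in Exp-156 they were 118.0 CPM in Tg-ACE and 130.3 CPM in WT. The spread within Exp-156b was 4.55% of the mean, and the codes did not overlap. The log2 fold change was -0.52 (SE 0.07, 95% interval -0.70 to -0.35, edgeR adjusted p = 0.00131). Jund was the only one of the 10 genes with fractional expected counts, in all 6 libraries, and its antisense partner Gm11175 had 25.6 to 28.5 CPM in Exp-156b and 35.3 to 38.0 CPM in Exp-156.

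Atf3, a stress-induced member of the wider AP-1 group that represses inflammatory genes in macrophages, stayed high in every library. It had 441.1 and 461.5 CPM in Tg-ACE and 412.8 and 406.9 CPM in WT in Exp-156b, and 444.2 CPM in Tg-ACE and 431.6 CPM in WT in Exp-156. Both Exp-156 values lay inside the range of Exp-156b. The log2 fold change was -0.03 (SE 0.07, 95% interval -0.18 to 0.13, edgeR adjusted p = 0.778), and its sign turned, to 0.05, with upper-quartile scaling. The interval excludes a change as large as that of any other member.

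Egr1 and Egr2 went opposite ways between the codes. Egr1, the classical early growth response factor, had 3.90 and 4.77 CPM in Tg-ACE and 4.44 and 5.53 CPM in WT in Exp-156b, and 8.79 CPM in Tg-ACE and 10.2 CPM in WT in Exp-156. Its mean of 4.66 ± 0.678 CPM (SD, n = 4) in Exp-156b was 49.0% of the Exp-156 mean of 9.51 CPM. The log2 fold change was -1.03 (SE 0.15, 95% interval -1.39 to -0.67, edgeR adjusted p = 0.00165), on deposited counts of 98 to 139 in Exp-156b and 250 in each Exp-156 library. Egr2, which takes part in macrophage differentiation and alternative activation, had 94.8 and 82.8 CPM in Tg-ACE and 96.7 and 88.9 CPM in WT in Exp-156b, and 60.0 CPM in Tg-ACE and 66.1 CPM in WT in Exp-156. All 4 Exp-156b libraries were above both Exp-156 libraries, the only gene of the 10 with that order. Its log2 fold change was 0.53 (SE 0.08, 95% interval 0.34 to 0.72, edgeR adjusted p = 0.00193).

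Ier2, a nuclear protein of the immediate early response, had the largest decrease in Exp-156b after Fos among the members that passed the low-count filter. Its levels in Exp-156b were 20.3 and 22.8 CPM in Tg-ACE and 20.3 and 19.9 CPM in WT, and in Exp-156 they were 47.8 CPM in Tg-ACE and 61.8 CPM in WT. The Exp-156b mean was 38.0% of the Exp-156 mean and the codes did not overlap. The log2 fold change was -1.39 (SE 0.11, 95% interval -1.64 to -1.14, edgeR adjusted p = 9.51e-05). Ier3, which modulates survival and ERK signalling, had 6.93 and 8.76 CPM in Tg-ACE and 7.99 and 8.11 CPM in WT in Exp-156b, and 13.2 CPM in Tg-ACE and 13.5 CPM in WT in Exp-156. The 2 Exp-156 libraries were close to each other and above the rest, with a log2 fold change of -0.75 (SE 0.13, 95% interval -1.04 to -0.46, edgeR adjusted p = 0.00271).

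Of the 10 genes, 9 passed the low-count filter. Between the codes, 7 of these 9 were lower in Exp-156b and 1, Egr2, was higher, so 88.9% were called, beside 42.9% of all 12827 genes tested (20.0% higher and 23.0% lower). Their median log2 fold change was -0.75, beside -0.01 over all genes tested. The codes did not overlap for 9 of the 10 genes, 8 lower and 1 higher in Exp-156b, beside 59.8% of all genes tested (30.9% lower and 28.9% higher). The share of higher and lower calls over all genes depended on scaling: 2559 genes were higher and 2945 lower with TMM, and 3333 were higher and 2408 lower with upper-quartile scaling. With Exp-156 held by 1 library per genotype, the comparison rests on 2 libraries on that side. These 8 genes remained called when any 1 library was left out and in every other setting tried. Fosb remained called in the 5 settings that gave it a value, which do not include leaving out either Exp-156 library. In those 5 it passed the low-count filter only through the 2 Exp-156 libraries, where it was high. Its call there is therefore not further support.

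**Figure D2:**
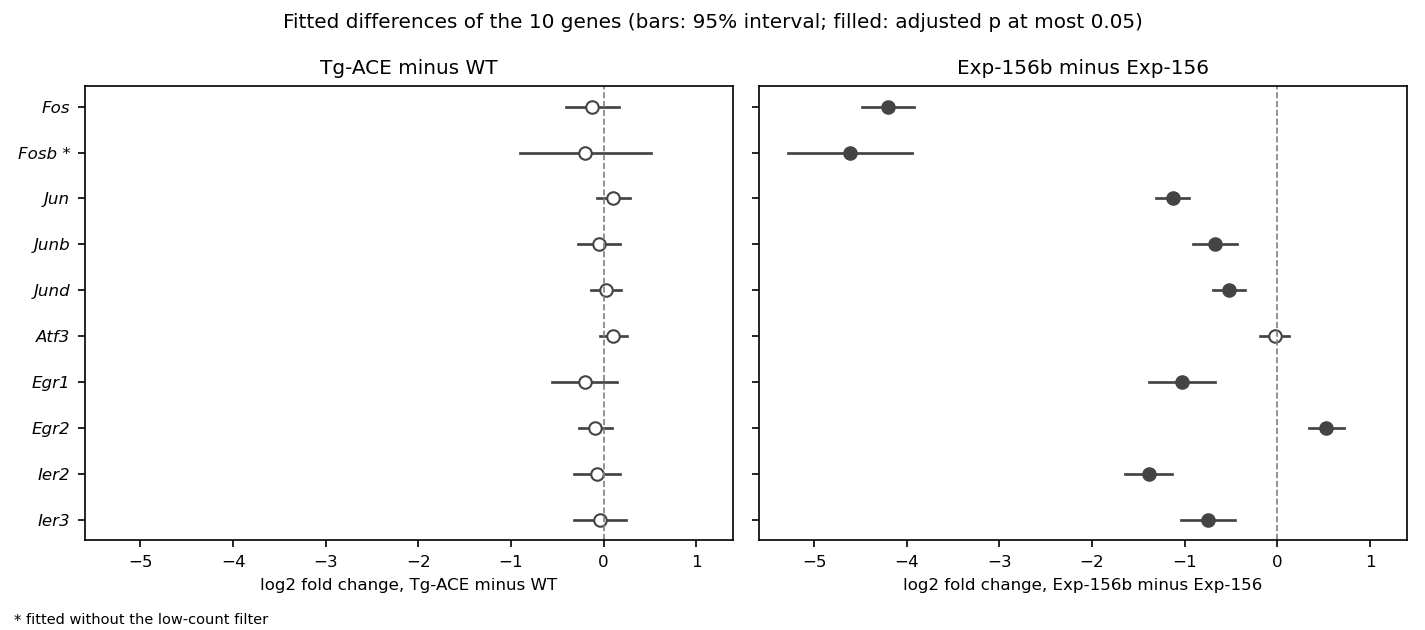
Log2 fold change of each of the 10 genes with its 95% interval, for Tg-ACE against WT and for Exp-156b against Exp-156, with Fosb from the fit without the low-count filter. The genotype intervals all include 0, while between the codes only that of Atf3 does, and Fos and Fosb lie near -4.21 and -4.61.

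Markers of other cell types and sample measures moved with the code too. Marker sums in this paragraph are of CPM without TMM scaling. In summed CPM, neutrophil markers (6 genes) were at 81.6 to 91.9 in Exp-156b and 259.3 to 569.9 in Exp-156, with 3 of the 5 tested called lower and the defining Ly6g under 1 CPM in every library. Retnlg alone held 130.0 CPM (Tg-ACE) and 441.0 CPM (WT) of the Exp-156 sums, and 0.202 to 1.22 CPM in Exp-156b. S100a8 and Cxcr2 were not called. Eosinophil markers (5 genes) were at 8.71 to 18.7 CPM in Exp-156b and 89.4 to 224.5 CPM in Exp-156, with Epx, Prg2 and Ear6 under 1 CPM. Mast cell and basophil markers (6 genes) had 12.5 to 25.4 CPM in Exp-156b and 56.3 to 88.7 CPM in Exp-156. These 3 groups were lower in Exp-156b, as were dendritic cell markers (5 genes, 4.56 to 9.08 against 43.5 to 55.8 CPM) and T and NK cell markers (6 genes, 2.80 to 5.32 against 9.60 to 13.0 CPM). B cell markers (5 genes) overlapped between the codes, at 56.7 to 130.7 CPM in Exp-156b and 96.6 to 122.9 CPM in Exp-156, and none of the 5 was called. Mesothelial and fibroblast markers (7 genes) went the other way, at 220.9 to 464.8 CPM in Exp-156b and 152.6 to 173.1 CPM in Exp-156, with 5 called higher and 1 lower. Of the 9 tested rows of macrophage markers, 6 were called lower in Exp-156b and 0 higher. Of those called, Adgre1 averaged 273.7 CPM in Exp-156b and 638.7 CPM in Exp-156 after TMM scaling (log2 fold change -1.22). Lyz2 and Cd68, both at a log2 fold change of -0.04, were not called. The part of these cells, of sex and of mitochondrial or ribosomal protein reads (3.10% to 3.43% against 2.70% to 2.86%) in the levels of the immediate early genes was not tested.

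Levels can be compared between genes only per length, so counts were also expressed as TPM (counts divided by gene length and scaled to a total of 1000000), with the merged exon length of each gene in GENCODE vM21. On this scale Atf3 was the most abundant of the 10 in both codes, at 594.2 ± 22.4 TPM (SD, n = 4) in Exp-156b and 632.6 TPM in Exp-156. In Exp-156b, Jun followed at 161.5 ± 8.84 TPM, then Jund at 154.2 ± 3.26 TPM and Junb at 151.1 ± 3.76 TPM. The ranges of those 3 Jun genes overlapped, so their order is not resolved. Egr2 (79.5 ± 6.45 TPM), Ier2 (40.7 ± 2.41 TPM), Ier3 (20.9 ± 2.33 TPM) and Fos (18.6 ± 1.89 TPM) came next, and Ier3 and Fos overlapped. Egr1 had 3.10 ± 0.527 TPM and Fosb 0.0925 ± 0.0319 TPM. In Exp-156 the place of Fos was different: at a mean of 360.6 TPM it ranked 3 of the 10, its Tg-ACE and WT libraries (317.6 and 403.7 TPM) spanning those of Jun (371.1 and 368.1 TPM).

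The balance between the Fos and Jun families differed between the codes. Fos and Fosb together had 16.6 to 21.2 TPM in Exp-156b and 319.8 to 406.2 TPM in Exp-156, while Jun, Junb and Jund together had 455.4 to 477.8 TPM in Exp-156b and 818.5 to 888.7 TPM in Exp-156. Fos family transcripts were thus 3.52% to 4.36% of the sum of both families in Exp-156b and 28.1% to 31.4% in Exp-156. Within the Jun family, Jun itself had a share of 32.8% to 35.7% in Exp-156b and 41.4% to 45.3% in Exp-156. The shares of Junb (31.6% to 33.8% against 27.5% to 31.5%) and Jund (31.9% to 33.8% against 27.1% to 27.2%) were higher in Exp-156b without overlap. These are shares of transcripts and not of protein.

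**Figure D3:**
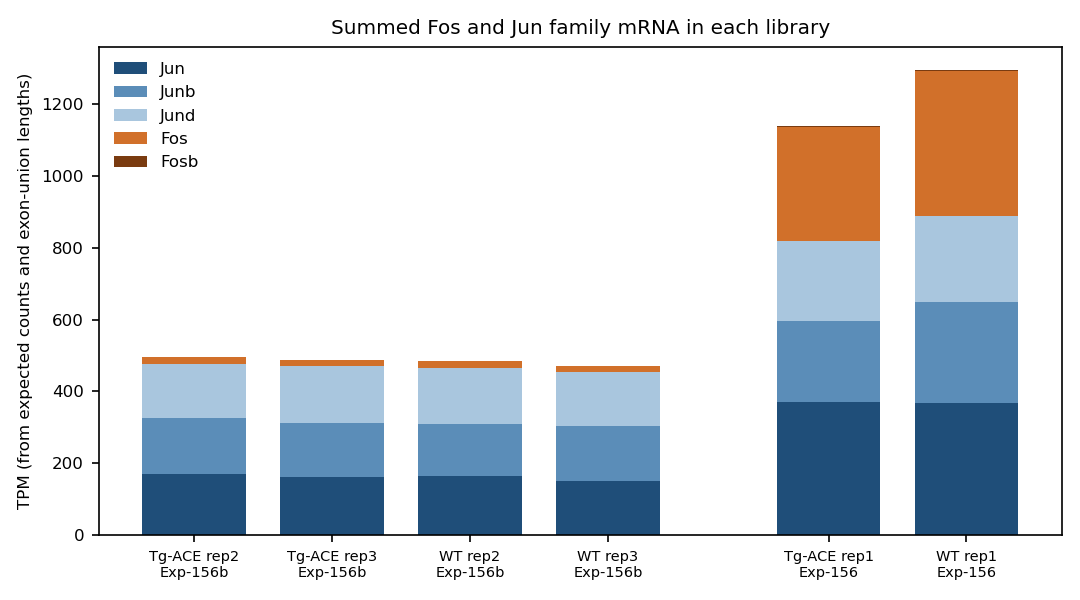
Stacked TPM of the Jun family (Jun, Junb, Jund, in blues) and the Fos family (Fos, Fosb, in browns) in each library, with Tg-ACE left of WT within each code. Jun family transcripts exceed Fos family transcripts in all 6 libraries, and Fos family transcripts are 3.52% to 4.36% of both in Exp-156b and 28.1% to 31.4% in Exp-156.

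Between Tg-ACE and WT macrophages, with the experiment code as a term of the model, none of the 10 genes passed the test. Fos averaged 89.2 ± 128.5 CPM in Tg-ACE and 112.4 ± 169.7 CPM in WT (SD, n = 3 each), with replicate 1, the Exp-156 library, far above the others in both genotypes, and with a log2 fold change of -0.12 (SE 0.12, 95% interval -0.40 to 0.16, edgeR adjusted p = 0.869). Jun averaged 247.9 ± 111.6 CPM in Tg-ACE and 236.0 ± 126.1 CPM in WT, with a log2 fold change of 0.11 (95% interval -0.07 to 0.28, edgeR adjusted p = 0.83). Of the 9 genes tested, 0 were called and 0 had an unadjusted p under 0.05, beside 0.0156% called and 6.48% with an unadjusted p under 0.05 over all genes. The genotype call over all genes was for 2 genes, both lower in Tg-ACE. A log2 fold change above 0 was found for 3 of the 9 and one below 0 for 6, with a median of -0.05, beside -0.01 over all genes.

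The intervals limit how large a genotype difference these libraries can hold. For the 9 genes they ran from -0.56, the lower bound of Egr1, to 0.28, the upper bound of Jun, and for Fosb, in the fit without the low-count filter, from -0.91 to 0.52. The remaining log2 fold changes were -0.05 for Junb, 0.03 for Jund, -0.21 for Egr1, -0.09 for Egr2, -0.07 for Ier2, -0.04 for Ier3 and -0.20 for Fosb. Atf3 alone had no overlap between genotypes: it averaged 448.9 ± 11.03 CPM in Tg-ACE and 417.1 ± 12.9 CPM in WT (SD, n = 3 each), with a log2 fold change of 0.11 (95% interval -0.04 to 0.25, edgeR adjusted p = 0.797). Beside this 1 of 10, 4.91% of all genes tested had genotypes that did not overlap (2.38% higher and 2.53% lower in Tg-ACE). Without the code as a term, edgeR called 0 genes of the table for genotype, and 126 had an unadjusted p under 0.05.

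Within the codes the genotype difference had no common direction. In Exp-156, where 1 Tg-ACE library stood against 1 WT library with no replicate, Tg-ACE was below WT for 8 of the 9 genes, with log2 differences from -0.38 for Fos to 0.04 for Atf3. In Exp-156b, Tg-ACE was below WT for 3 of the 9, with log2 fold changes from -0.20 for Egr1 to 0.17 for Jun and edgeR adjusted p between 0.509 and 0.946. Fos was at -0.38 in Exp-156 and 0.05 in Exp-156b, Junb at -0.35 and 0.10, and Ier2 at -0.37 and 0.10. The interaction of genotype and code tests that difference, and its residual spread comes from the 4 Exp-156b libraries. It was positive for 9 of 9 genes, yet 0 of them and 0 of the 12827 genes passed in edgeR, where 981 genes (7.65%) had an unadjusted p under 0.05, with 13 genes called by DESeq2 and 0 by limma-voom. Junb (0.44, SE 0.12, edgeR adjusted p = 0.647) and Ier2 (0.47, SE 0.14, edgeR adjusted p = 0.647) were the 2 members with an unadjusted p under 0.05. The 9 signs are not independent, since all rest on the same 1 Exp-156 library per genotype.

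Lists of related genes place the 10 members in the wider response. Their counts stand beside the 42.9% of all genes tested that were called (20.0% higher and 23.0% lower in Exp-156b), and a share near that says nothing particular of a list. Values given alone in parentheses are log2 fold changes of Exp-156b against Exp-156. Among 8 other AP-1 genes, 4 were called lower and 0 higher in Exp-156b. Only the share called in either direction was near that of all genes. Of the 8, 7 had a log2 fold change below 0, and the median was -0.39. Fosl2, a further Fos relative, had 37.3 ± 0.612 CPM (SD, n = 4) in Exp-156b and 92.1 CPM in Exp-156 (log2 fold change -1.30, edgeR adjusted p = 1.7e-05). Batf3, an AP-1 factor needed for some dendritic cells, had 3.95 ± 0.367 CPM in Exp-156b and 16.1 CPM in Exp-156 (-2.004, edgeR adjusted p = 0.000204). Fosl1 did not pass the test, with a log2 fold change of 0.66 and an edgeR adjusted p of 0.078. Of the 3 other Egr and Nab genes tested, only Nab2, a corepressor that Egr proteins induce and bind, was called, at 31.2 ± 3.10 CPM in Exp-156b and 84.3 CPM in Exp-156 (-1.43). Egr3 (-0.24) and Nab1 (-0.07) did not pass, and Egr4 was under 1 CPM in every library.

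Other immediate early genes split. Of 14 tested, 7 were lower and 4 higher in Exp-156b, with a median log2 fold change of -0.54. Nr4a1, an orphan nuclear receptor, had 1.65 ± 0.421 CPM (SD, n = 4) in Exp-156b and 12.7 CPM in Exp-156 (-2.95, edgeR adjusted p = 6.1e-05), and its relatives Nr4a2 and Nr4a3 were lower too (-1.62 and -2.96). Mcl1, an anti-apoptotic gene with a short-lived transcript, had 544.3 ± 45.04 CPM in Exp-156b and 1178 CPM in Exp-156 (-1.11). The 4 that were higher, named here after their values were seen, were Csrnp1 (0.99), Plk2 (0.98), Maff (0.91) and Plk3 (0.48). Plk2, a polo-like kinase, had 437.1 ± 28.1 CPM in Exp-156b and 222.4 CPM in Exp-156. Egr2 was not alone in being higher.

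Feedback regulators of the response were mostly lower in Exp-156b as well. Some of them dephosphorylate MAP kinases or direct the decay of short-lived transcripts, and others act in other ways. Of 14 feedback regulators, 9 were lower and 2 higher, with a median log2 fold change of -1.07. Zfp36, which binds AU-rich transcripts and directs their decay, had 65.5 ± 3.65 CPM (SD, n = 4) in Exp-156b and 210.2 CPM in Exp-156 (-1.68, edgeR adjusted p = 5e-06). Dusp6, an ERK phosphatase, had 6.14 ± 0.776 CPM in Exp-156b and 41.0 CPM in Exp-156 (-2.74). Dusp1, a nuclear MAP kinase phosphatase and the lowest of the list, chosen after its values were seen, had 20.1 ± 1.28 CPM in Exp-156b and 274.0 CPM in Exp-156 (-3.72). The 2 higher genes, also chosen after their values were seen, were Dusp4 (1.75) and Gadd45b (0.77), so the feedback regulators did not all move one way.

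Genes that act upstream of the immediate early genes were also described. Of 7 tested genes of serum response factor, its partners and CREB, 5 were lower and 1 higher in Exp-156b, with a median log2 fold change of -0.39. Srf itself, the factor that binds CArG boxes, had 33.3 ± 3.46 CPM (SD, n = 4) in Exp-156b and 60.5 CPM in Exp-156 (-0.86, edgeR adjusted p = 0.000352), and Creb1 was also lower (-0.81). Among 17 MAP kinase cascade genes, 6 were lower and 2 higher, again near the share over all genes, with a median of -0.06. Mapk14, which encodes a p38 stress kinase, had 88.5 ± 2.37 CPM in Exp-156b and 164.0 CPM in Exp-156 (-0.89), and Rps6ka1, a kinase downstream of ERK, had 75.1 ± 2.83 CPM in Exp-156b and 149.2 CPM in Exp-156 (-0.98). Heat shock genes, which respond to misfolded protein, had 3 of 10 higher and 2 lower, also near the share over all genes, with a median of 0.04. Over all genes tested the median was -0.01.

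**Figure D4:**
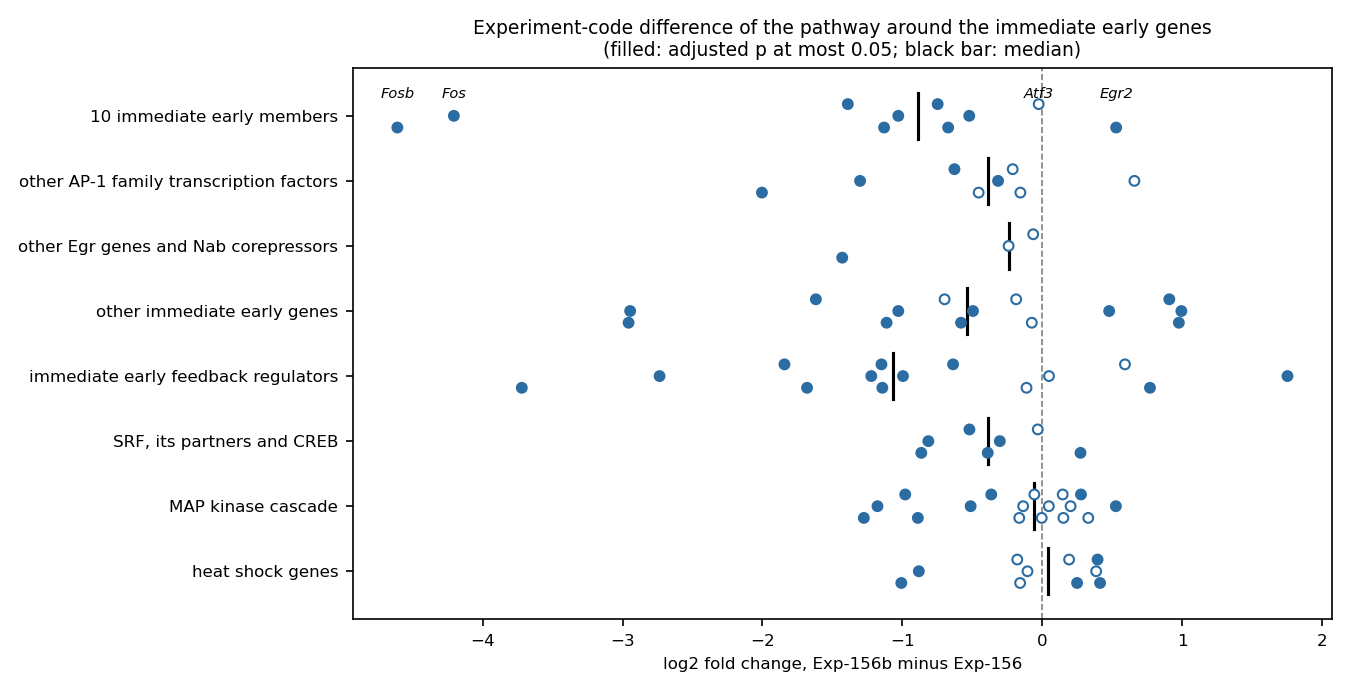
Log2 fold change of Exp-156b against Exp-156 for the 10 genes and the related lists, 1 point per gene, filled where the edgeR adjusted p was at most 0.05, with a black bar for the median of each list (Fosb, from the fit without the low-count filter, counts in the top one). The feedback regulators have a median of -1.07 and the heat shock genes one of 0.04, with points on both sides of 0 in most lists.

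For genotype, 0 genes of any of these lists were called. The list medians lay between -0.05 and 0.07, and the smallest adjusted p was 0.746, for Elk4, a serum response factor partner, with 32.2 ± 1.56 CPM in Tg-ACE and 38.1 ± 0.5005 CPM in WT (SD, n = 3 each; log2 fold change -0.24, edgeR). Among the other genes with the smallest p in their lists were Batf (0.32), Atf7 (-0.15), Nab2 (0.09), Egr3 (-0.28), Sik1 (-0.12), Myc (0.22), Zfp36 (-0.13), Btg2 (-0.22), Mkl1 (0.08) and Braf (-0.22), given as log2 fold changes. All 10 heat shock genes had a log2 fold change above 0, with none called.

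The genes with profiles most like those of Fos and Egr1 were found from log2 CPM centred on each gene's mean, over the 6 libraries and among genes with a mean of at least 5 CPM. By the root mean square difference on that log2 scale, the 4 nearest to Fos were Krt80 (0.165), Cd300lg (0.197), Ankrd37 (0.238) and Gapt (0.241). Krt80, a keratin gene, had 3.25 ± 0.576 CPM (SD, n = 4) in Exp-156b and 62.8 CPM in Exp-156. Of the 8 other members with a mean of at least 5 CPM, which leaves out Fosb, Ier2 was the closest to Fos, at 1.33, and ranked 255th. Nearest to Egr1 were Tmcc2 (0.0494), Irf4 (0.0825), Cdc25b (0.0954) and Impa2 (0.0958), and Ier3, at 0.175, was the closest of the members with a mean of at least 5 CPM. Irf4, a transcription factor of alternative macrophage activation, had 13.5 ± 2.33 CPM in Exp-156b and 27.3 CPM in Exp-156. With 6 libraries in 2 codes, likeness in these profiles is mostly a like difference between codes.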

How the data were processed

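Per the labels, mouse poly-A RNA had been made into stranded libraries and sequenced as single 75-base reads. The authors deposited 1 table, without normalization, of expected counts by gene in all 6 samples. The submitters' processing notes name RSEM 1.2.25, STAR 2.5.0 and, as builds, GRCh38 and mm10, with no role for each. Between 11.0% and 11.4% of values in a library were not whole, and all were rounded. The 92 spike-in rows (1 count in all) stayed out of library sizes and tests, and 0 columns belonged to samples outside the labels. No pair of libraries held the same counts (mean chi-square per gene at least 12.8), so none was a copy of another and each was taken as 1 sample. This does not show that each came from its own mouse. The series' design text writes Tg-NKO where the labels say Tg-ACE, which was followed.

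Counts were fitted in edgeR 4.0.16 (R 4.3.3) with TMM, the filterByExpr filter by genotype (12827 genes), and genotype and experiment code as terms. The quasi-likelihood test was adjusted by the Benjamini-Hochberg method at 0.05 over all genes. The biological coefficient of variation was 0.108, and 0.310 without the code. Alternatives used limma 3.58.1 and DESeq2 1.42.0. Fosb came from the fit without the filter. Pooled ratios have exact Clopper-Pearson intervals. The fits were tested on simulated data. Gene positions and lengths came from GENCODE vM21 on GRCm38 and promoters from RefSeq on GRCm38.p6.

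Same-numbered libraries of the genotypes correlated in their deviations from group means at 0.856, 0.484 and 0.637 over genes. The main fit did not take the replicate numbers as pairs, and they formed a block only in an alternative fit. Crossed pairs within Exp-156b gave 0.614 and 0.539. After the code was taken out, pairs 2 and 3 had -0.177 and -0.100, and the crossed pairs had -0.094 and -0.143.

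The members, the related lists and the tests were chosen with earlier results of these data known. Named genes were all members, the 2 genes of each list with the smallest p for each comparison, and the 4 nearest profiles to Fos and to Egr1. Of these, 1 named gene is not reported here, nor is 1 list of cell type markers.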

Additional observations from a re-analysis of the deposited data

Results flagged for a closer look

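Ier2 in the Exp-156b libraries had 1 value apart from the others. Its 22.8 CPM in Tg-ACE replicate 3 stood above 20.3 CPM in Tg-ACE replicate 2 and 20.3 and 19.9 CPM in WT replicates 2 and 3. The gap to the nearest value was 0.8387 of the whole range, past the critical value for 4 libraries. Of the 10 genes tested in this way 1 was past it, and chance flags about 1 in 20 such groups. The Exp-156 libraries, with 47.8 CPM in Tg-ACE and 61.8 CPM in WT, lay well above all of these.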

How the results depend on the processing

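The code differences of 8 members kept their direction and their side of the threshold in every setting that gave a value. Fosb did too, but only in settings where the 2 Exp-156 libraries carried it past the filter, which is not further support. Over the whole table, genotype calls numbered 2 as fitted and 2 with the replicate block, 9 without the low-count filter, 37 with DESeq2, 0 without the code as a term, and 2 to 3 with 1 library left out. The block changed no call of a member (adjusted p 0.896 to 0.97). Code calls numbered 5504 as fitted and 3406 to 5263 with 1 library left out, lowest without Tg-ACE replicate 1 (3406) and WT replicate 1 (3449). Interaction calls numbered 0 as fitted, 13 with DESeq2 and 0 to 14 with 1 library left out, the 14 without WT replicate 3. With Exp-156b alone the genotype log2 fold change turned sign for Fos (0.0495), Junb (0.10) and Ier2 (0.10). Upper-quartile scaling turned the code difference of Atf3 (0.0517) and Nab1 (0.012), and limma-voom the interaction of Ier3 (-0.0061), none of them called. With 1 library left out, genotype values ran from -0.24 to 0.0492 for Fos, -0.12 to 0.10 for Junb, -0.0034 to 0.11 for Jund, -0.16 to 0.10 for Ier2 and -0.13 to 0.0436 for Ier3. Interaction values ran from -0.54 to 0.46 for Fosb, -0.13 to 0.19 for Egr1, -0.0251 to 0.19 for Egr2 and -0.16 to 0.16 for Ier3, and code values from -0.077 to 0.0185 for Atf3 and -0.15 to 0.0101 for Nab1. The cause of these changes was not tested. Leaving out an Exp-156 library leaves that code with 1 library, assumed to vary like the rest, and the interaction then has no fit. Fosb, at 3 to 7 counts in Exp-156b, is limited by depth.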
